A study of Homo sapiens with 15 samples.

Results

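The 32 genes described here serve the supply of amino acids to protein synthesis: the regulators and targets of the amino acid stress response, and the cytosolic enzymes that load transfer RNA (tRNA) with amino acids. They were taken by name from a list, with no measured value in the rule, although the list was chosen with earlier results of these data known. By role they are grouped here into 8 regulators, 8 enzymes of amino acid and one-carbon metabolism, 3 amino acid transporter subunits with 1 lipoprotein receptor, and 12 tRNA synthetases. CHAC1, a glutathione-degrading enzyme, is counted among the regulators. All 32 were found among the 21493 genes counted, and 32 of 32 passed the filter on low counts in every comparison.

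The data are RNA-Seq counts of 15 libraries of NCI-H295R, a steroid-producing line from a human adrenocortical carcinoma. The groups are as follows: ΔNFATC4 cells (3 libraries) received the plasmid pcNDA3.T7 delta-NFAT3, which encodes NFATC4 without the N-terminal domain and therefore constitutively active, and mock cells (4 libraries) received the empty plasmid pcDNA3.T7, with RNA taken 3 days after transfection. The libraries labelled NFATC4-KO (4, numbered 1, 2, 3 and 5) come from CRISPR/Cas9 clones, each grown from a single cell after transfection with a pair of guides, and the libraries labelled control (4, numbered 1 to 4) come from cells transfected in parallel with empty plasmids. All cells grew in serum-containing medium with insulin, transferrin and selenium, and the labels name no amino acid starvation or other stressor. The sources used here do not say which clone gave which library or whether replicates were separate cultures, so the tests measure only how far these libraries spread, which may be technical.

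When an amino acid runs short, uncharged tRNA activates the kinase GCN2, which phosphorylates the translation factor eIF2. Most translation then slows while the mRNA of the transcription factor ATF4 is translated more, and ATF4 raises genes for amino acid synthesis, amino acid uptake and tRNA charging. Endoplasmic reticulum (ER) stress, heme deficiency and viral RNA reach the same step through other kinases, and because ATF4 is controlled largely at translation, its mRNA level is only a partial readout of the pathway.

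ATF4 and C/EBP family partners bind the C/EBP-ATF response element, whose core is written here as TGATGNAA and was searched on both strands in RefSeq promoter windows (GRCh38.p14, 250 bases before to 50 bases after each annotated start site). Of the 32 genes, 26 had a window, 42 windows in all. The core occurred in 11 of these 42 windows (26.2%) and in 3.62% of 35116 windows of all genes, and the 11 windows belonged to 11 different genes. GGAAA, the core of NFAT sites, occurred in 52.4% of the members' windows and in 61.2% of all windows, and no TGATGNAA match shared a base with a GGAAA match. The stretches around the 11 matches are shown because members of each role hold one (2 regulators, 1 enzyme, 1 transporter subunit and 7 synthetases); capitals mark the match, which reads TGATGNAA in 3 genes and its reverse complement in 8.
CHAC1 (chr15:40953251-40953280, plus strand, match 209 bases before the start site): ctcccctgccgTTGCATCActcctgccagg
ASNS (chr7:97872458-97872487, minus strand, match 68 bases before the start site): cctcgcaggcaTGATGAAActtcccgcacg
SLC3A2 (chr11:62881725-62881748, plus strand, match 37 bases after the start site): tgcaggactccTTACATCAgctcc
CEBPG (chr19:33374060-33374089, plus strand, match 42 bases before the start site): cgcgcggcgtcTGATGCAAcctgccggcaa
AARS1 (chr16:70289675-70289704, minus strand, match 187 bases before the start site): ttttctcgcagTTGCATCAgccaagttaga
CARS1 (chr11:3057407-3057436, minus strand, match 2 bases before the start site): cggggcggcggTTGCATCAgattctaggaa
GARS1 (chr7:30594834-30594863, plus strand, match 33 bases before the start site): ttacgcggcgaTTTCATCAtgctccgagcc
IARS1 (chr9:92293692-92293721, minus strand, match 13 bases before the start site): ttttcagcgcgTTGCATCAcctccgtgcgc
MARS1 (chr12:57488053-57488082, plus strand, match 4 bases before the start site): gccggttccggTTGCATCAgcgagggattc
NARS1 (chr18:57621804-57621833, minus strand, match 14 bases after the start site): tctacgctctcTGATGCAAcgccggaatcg
TARS1 (chr5:33440956-33440985, plus strand, match 2 bases after the start site): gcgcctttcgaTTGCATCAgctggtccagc

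Both longer examples below are the 250 bases upstream of the start site of CHAC1, the member with the largest ratio between mock cells and replicates 1 and 2 of the other labels, and of ASNS, the textbook target of the pathway, with the same match in capitals.
CHAC1 (chr15:40953221-40953470, plus strand): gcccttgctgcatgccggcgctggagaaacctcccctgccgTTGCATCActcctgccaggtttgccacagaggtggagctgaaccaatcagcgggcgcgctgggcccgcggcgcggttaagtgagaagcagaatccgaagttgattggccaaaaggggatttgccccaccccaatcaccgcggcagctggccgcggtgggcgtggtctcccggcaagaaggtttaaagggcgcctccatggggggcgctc
ASNS (chr7:97872409-97872658, minus strand): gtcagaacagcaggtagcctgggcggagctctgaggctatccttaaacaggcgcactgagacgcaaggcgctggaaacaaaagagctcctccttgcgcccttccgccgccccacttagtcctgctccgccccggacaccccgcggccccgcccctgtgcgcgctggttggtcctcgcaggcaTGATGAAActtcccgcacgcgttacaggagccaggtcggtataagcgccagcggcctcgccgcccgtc

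A match is a description of letters and was not a test of binding. Of the 26 members with a window, 11 held the core (42.3%). It occurred in 2 of 8 that were higher without overlap in mock cells than in replicates 1 and 2 of the other groups (CHAC1 and SLC3A2). It also occurred in 3 of 6 that were lower without overlap (AARS1, IARS1 and NARS1) and in 6 of 12 that overlapped. Of the 5 members with a window that were called between ΔNFATC4 and mock cells, 1 held the core, ASNS. With so few members these shares cannot be told apart.

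Libraries of ΔNFATC4 cells held 18.8 to 24.6 M counts, with 21.6 to 28.2 M in mock cells, 20.6 to 23.6 M under the NFATC4-KO label and 21.6 to 25.9 M under the control label. NFATC4 itself stood at 329.7, 359 and 342 CPM (counts scaled to the library's total and composition) in ΔNFATC4 cells, where plasmid reads count towards the gene, against 91.3, 93.4, 106 and 87.5 CPM in mock cells. It was 92.6, 85.4, 57.5 and 53.6 CPM in the libraries labelled NFATC4-KO 1, 2, 3 and 5, against 114, 109.9, 44.8 and 54.0 CPM in control 1 to 4, so its mRNA lay nearer within a replicate set than within a label. Replicates 1 and 2 of both labels deviated together from their label means, as did replicates 3 to 5 (correlations of 0.704 to 0.839 across genes, which are not independent), and they are called here the replicate 1-2 set and the replicate 3-5 set (4 libraries each). The 10 adrenocortical markers, among them the steroidogenic factor NR5A1, were present in all 15 libraries, whereas markers of other cell types were low: PTPRC of blood cells was at 0 in 11 libraries and TH of chromaffin cells in 13, but CD68, DCN, CHGA (also of chromaffin cells, 1.08 to 2.70 CPM) and the epithelial marker EPCAM (1.47 to 5.38 CPM) were above 0 in all 15.

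Most of the genes described here were not called between ΔNFATC4 and mock cells. Of the 32 members, 2 rose (ASNS and SLC7A11) and 4 fell (VLDLR, PHGDH, MTHFD2 and EPRS1) in ΔNFATC4 cells against mock cells at an adjusted p under 0.05 (edgeR quasi-likelihood test, Benjamini-Hochberg over 14094 genes), beside 7.69% of all genes tested that rose and 6.10% that fell. The median log2 fold change of the members was 0.02 and that of all genes -0.00270. No member passed a fold change over 2 as well, beside 2.18% of all genes upward and 0.149% downward. At an unadjusted p under 0.05, 6 of the 32 members were higher and 7 lower. Both are larger shares than the 13.2% and 12.7% of all genes, and that difference was not tested. With 1 library left out in turn, 0 to 5 members rose and 2 to 5 fell, and in a fit of all 15 libraries by their 4 labels 0 rose and only VLDLR and EPRS1 fell.

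**Figure D1:**
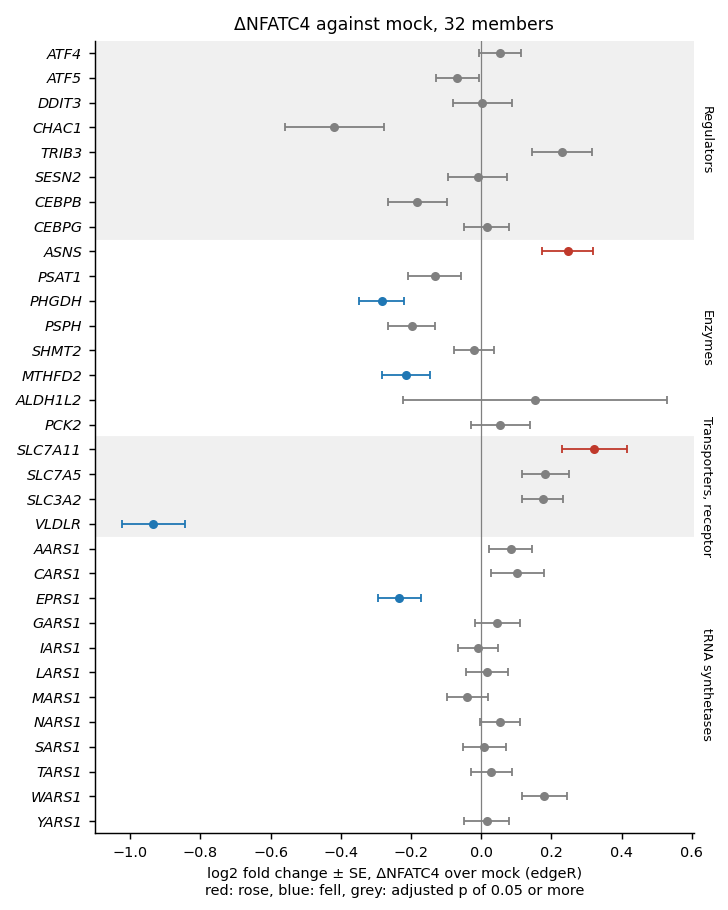
Log2 fold change of each member in ΔNFATC4 over mock cells with its standard error (edgeR, 3 and 4 libraries), members grouped by role down the page. VLDLR stands apart at -0.93, the other called members lie between -0.28 and 0.32, and the 10 synthetases other than EPRS1 and WARS1 lie between -0.04 and 0.10.

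VLDLR, a receptor for triglyceride-rich lipoproteins that ATF4 raises under ER stress, fell most. It had 20.6, 19.7 and 19.1 CPM in ΔNFATC4 cells, against 37.3, 40.2, 42.3 and 32.2 CPM in mock cells (log2 fold change -0.93 ± 0.09, SE, adjusted p = 3.39e-07). The groups did not overlap, and the mock level was close to the 36.6 to 38.2 CPM of the replicate 1-2 set, so ΔNFATC4 cells stood alone at 0.523 of the mock level. The call held with each of the 7 libraries left out in turn.

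Among the enzymes, the mRNAs of PHGDH and MTHFD2 fell and that of ASNS rose. PHGDH, which starts serine synthesis from a glycolytic intermediate, had 218, 212 and 204 CPM in ΔNFATC4 cells, against 261, 233, 256 and 281 CPM in mock cells (log2 fold change -0.28 ± 0.06, SE, adjusted p = 0.00444). Every ΔNFATC4 library lay below every mock library, and this call also held without any single library. MTHFD2, a mitochondrial folate dehydrogenase, had 73.8, 66.7 and 73.3 CPM in ΔNFATC4 cells, against 82.3, 90.6, 80.4 and 78.0 CPM in mock cells (-0.21 ± 0.07, SE, adjusted p = 0.0406). ASNS, which makes asparagine, had 49.5, 48.7 and 51.2 CPM in ΔNFATC4 cells, against 46.4, 40.9, 37.8 and 42.9 CPM in mock cells (0.25 ± 0.07, SE, adjusted p = 0.0296). Neither pair of groups overlapped, but both calls depended on single libraries: that of MTHFD2 was lost without any 1 ΔNFATC4 library or without mock 2 or mock 3 (adjusted p up to 0.242), and that of ASNS without any 1 library other than mock 1 (adjusted p up to 0.127).

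The other enzymes did not pass in edgeR. PSPH, the last step of serine synthesis, was at 43.6 to 47.7 CPM in ΔNFATC4 cells and 50.9 to 54.9 CPM in mock cells, with no overlap and an adjusted p of 0.0535 in edgeR and 0.0484 in DESeq2's Wald test. PSAT1, the step between PHGDH and PSPH, was at 89.3 to 99.3 CPM in ΔNFATC4 cells and 89.9 to 114 CPM in mock cells, so that the log2 fold changes of the 3 serine enzymes were -0.28 for PHGDH, -0.13 for PSAT1 and -0.20 for PSPH. SHMT2, which passes the serine carbon to folate, differed by -0.02 on the log2 scale and PCK2, mitochondrial phosphoenolpyruvate carboxykinase, by 0.05. ALDH1L2, a mitochondrial folate enzyme, was nearly absent, with 15, 11 and 9 counts in ΔNFATC4 cells and 6, 7, 13 and 19 counts in mock cells, and a difference was not detectable at this depth.

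Among the transporters, SLC7A11, the cystine/glutamate exchanger, had 30.2, 33.6 and 30.6 CPM in ΔNFATC4 cells, against 21.3, 29.8, 23.6 and 26.0 CPM in mock cells (log2 fold change 0.32 ± 0.09, SE, adjusted p = 0.0238). Mock 2 came within 1 CPM of the lowest ΔNFATC4 library, and the call was lost without ΔNFATC4 2, ΔNFATC4 3 or mock 3 (adjusted p up to 0.153). SLC3A2, the heavy chain that pairs with SLC7A11 or SLC7A5, had 193, 191 and 198 CPM in ΔNFATC4 cells and 184, 168, 165 and 171 CPM in mock cells, and SLC7A5, the large neutral amino acid carrier, 44.8 to 46.2 CPM in ΔNFATC4 cells and 37.01 to 42.2 CPM in mock cells. Neither pair overlapped, and the edgeR adjusted p values of 0.0501 for SLC3A2 and 0.0779 for SLC7A5 lay over the threshold, while DESeq2's Wald test and limma-voom called SLC3A2 (0.0384 and 0.0487).

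None of the 8 regulators was called (edgeR), with 1 higher and 2 lower at an unadjusted p under 0.05 (13.2% and 12.7% of all genes), and DESeq2's Wald test and limma-voom did not add one. ATF4 had 189, 175 and 186 CPM in ΔNFATC4 cells, against 186, 171, 169 and 183 CPM in mock cells (log2 fold change 0.05 ± 0.06, SE). CHAC1, a glutathione-degrading enzyme and late ATF4 target, had 6.48, 4.62 and 7.01 CPM in ΔNFATC4 cells, against 9.24, 6.68, 7.86 and 8.33 CPM in mock cells (-0.42 ± 0.14, SE, adjusted p = 0.0558), and the ranges overlapped through ΔNFATC4 3 and mock 2. CHAC1 was called without either of these libraries (adjusted p down to 0.0278), and without a filter on low counts (adjusted p = 0.0237). TRIB3, a pseudokinase that restrains ATF4, had 23.3, 26.0 and 23.7 CPM in ΔNFATC4 cells and 22.3, 22.4, 20.1 and 18.3 CPM in mock cells (0.23 ± 0.09, SE, adjusted p = 0.0819). DDIT3 (CHOP), a stress-induced factor of the C/EBP family, averaged 29.3 ± 0.910 CPM in ΔNFATC4 cells and 29.3 ± 3.16 CPM in mock cells (SD, n = 3 and 4). ATF5, a relative of ATF4, differed by -0.07 on the log2 scale, SESN2, a leucine-sensing inhibitor of the kinase mTORC1, by -0.01, CEBPB by -0.18 and CEBPG by 0.02.

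Of the 12 synthetases, 1 fell. EPRS1, the fused glutamyl- and prolyl-tRNA synthetase, had 1897, 1907 and 1826 CPM in ΔNFATC4 cells, against 2426, 2135, 2119 and 2156 CPM in mock cells (log2 fold change -0.23 ± 0.06, SE, adjusted p = 0.0130). The groups did not overlap, mock 1 stood above the other mock libraries, and the call was lost without any 1 of the 3 ΔNFATC4 libraries (adjusted p up to 0.0922). EPRS1 was also the most abundant member per transcript length, at 386 CPM per kilobase in ΔNFATC4 cells and 454 in mock cells, where the other 11 synthetases lay between 8.22 for CARS1 and 99.0 for TARS1. WARS1, which loads tryptophan, had 90.8 to 95.2 CPM in ΔNFATC4 cells and 76.6 to 86.4 CPM in mock cells, with no overlap and an adjusted p of 0.0657. The other 10 had log2 fold changes between -0.04 for MARS1 and 0.10 for CARS1. Without mock 1, WARS1, TRIB3 and SLC3A2 were called as well (edgeR adjusted p = 0.0189, 0.0253 and 0.00321), and without mock 2, PSPH (0.0474).

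**Figure D2:**
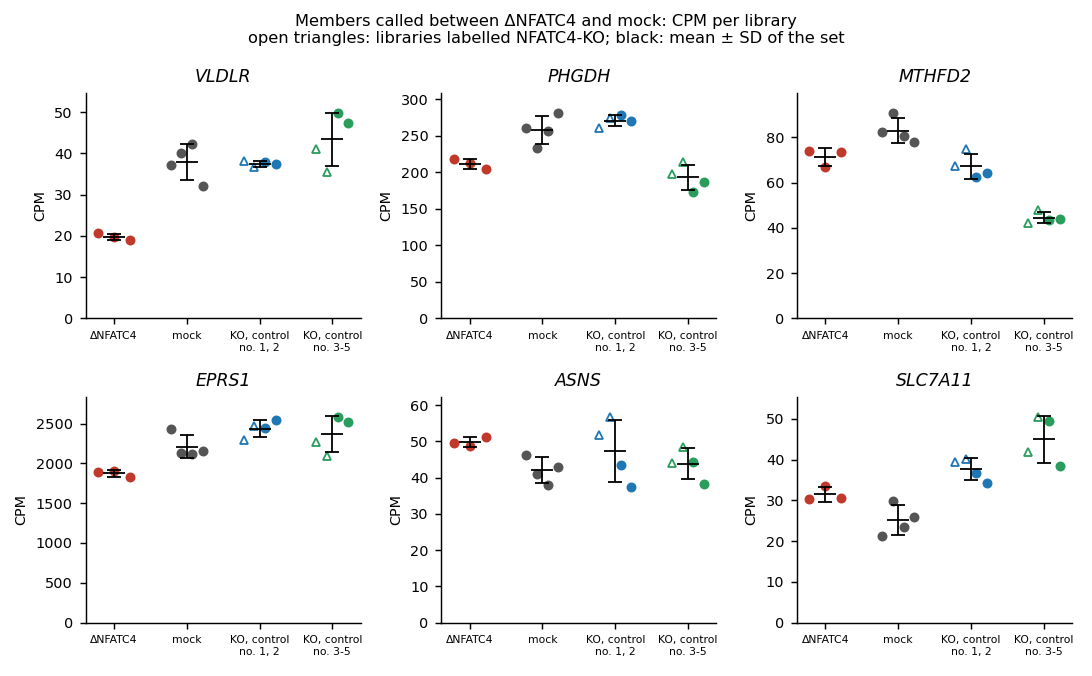
CPM of the 6 members called between ΔNFATC4 and mock cells, 1 point per library, with the mean and SD of each set in black; open triangles are libraries labelled NFATC4-KO. In each panel the 3 ΔNFATC4 points do not overlap the 4 mock points, and VLDLR shows the widest gap as a ratio, 19.1 to 20.6 CPM in ΔNFATC4 cells and 32.2 to 42.3 CPM in mock cells.

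In the other lists of the pathway a few genes were called, to be read against the 7.69% of all genes that rose and 6.10% that fell. Of 20 tested ATF4 targets outside the list, 1 rose, SLC7A1, a carrier of arginine and lysine (log2 fold change 0.32), and 4 fell, led by DDIT4 (REDD1), an mTORC1 inhibitor also raised by hypoxia and glucocorticoids (-1.24), and SLC38A2, a sodium-coupled glutamine and alanine carrier (-0.50), with GPT2, mitochondrial alanine transaminase (-0.29). Of 15 genes for eIF2, its kinases, phosphatases and exchange factor, 1 fell, EIF2AK1, the heme-regulated kinase (-0.18). None of the 8 other cytosolic synthetases and none of the 3 scaffold proteins of the multi-synthetase complex was called (0 at an unadjusted p under 0.05), and of 17 mitochondrial synthetases 2 rose, SARS2 (0.38) and FARS2 (0.33). Of 10 genes of the other ER stress arms, 1 fell, HERPUD1 (-0.30). At an unadjusted p under 0.05 (edgeR), 1 of the 20 ATF4 targets was higher and 8 lower, beside 13.2% and 12.7% of all genes. By that measure 2 of the 15 eIF2 genes were higher and 1 lower, and 4 of the 17 mitochondrial synthetases were higher and 1 lower. Among the 10 ER stress genes 1 was higher and 2 lower. Beside these values, the summed level of 10 markers of other cell types was 7.16 to 7.86 CPM in ΔNFATC4 cells and 4.81 to 6.12 CPM in mock cells. Of the 4 that were tested, 1 was called, the macrophage marker CD68, 3.52-fold higher at low levels (1.30 to 1.63 CPM against 0.26 to 0.54 CPM). The 10 adrenocortical markers summed to 2248 to 2572 CPM and 2242 to 2456 CPM, with 3 called higher and 2 lower. The part of both marker lists in the result was not tested.

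Transfected mock cells were next set beside the replicate 1-2 set. The sets differ in plasmid and, through NFATC4-KO 1 and 2, in genotype and single-cell cloning. The labels give no time since transfection for the replicate 1-2 set and no experiment for any library, so these may differ too. Such differences cannot be told apart, and since the sets were noticed in these data the comparison is a description with no test. CHAC1 was the only member with no overlap and a ratio of means of at least 1.5 upward (beside 1.71% of 14368 genes), and ALDH1L2 the only 1 downward (beside 3.60%). With no minimum on the ratio, 9 members were higher without overlap (16.2% of all genes) and 9 lower (18.3%; both directions together, 34.5%), and the roles were spread unevenly over these: 6 of 8 regulators were higher and 0 lower, whereas 5 of 12 synthetases were lower and 0 higher. The 6 include CHAC1, which is an enzyme.

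**Figure D3:**
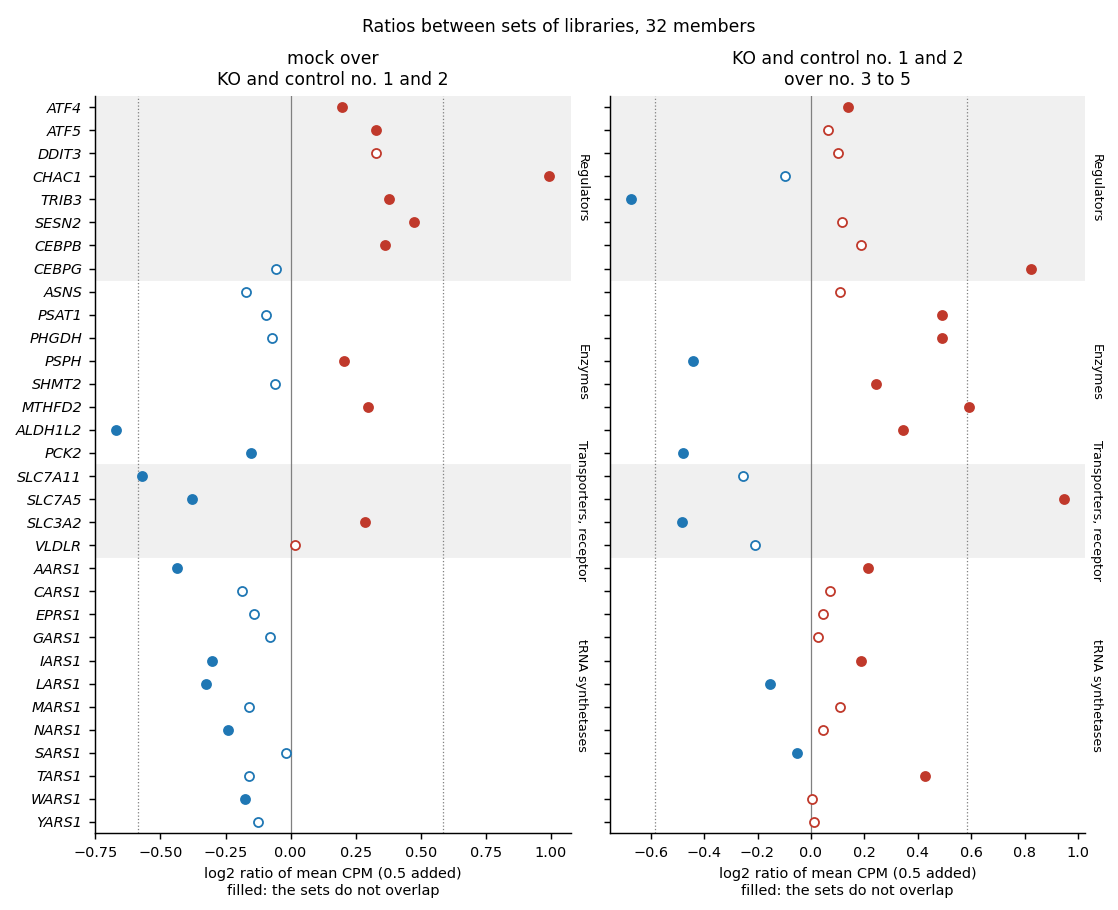
Log2 ratio of mean CPM, with 0.5 CPM added to each mean, for mock over the replicate 1-2 set on the left and the replicate 1-2 set over the replicate 3-5 set on the right; filled points mark sets that do not overlap and dotted lines a 1.5-fold ratio. On the left, 7 of 8 regulators lie right of 0 and all 12 synthetases left of it, and on the right SLC7A5, CEBPG and MTHFD2 lie past 1.5-fold upward and TRIB3 downward.

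CHAC1 had 9.24, 6.68, 7.86 and 8.33 CPM in mock cells, against 4.17 and 4.40 CPM in NFATC4-KO 1 and 2 and 3.56 and 3.01 CPM in control 1 and 2. The ratio of means was 1.99 with 0.5 CPM added to each mean, as in the other ratios between sets, which lowers it at such levels. The ΔNFATC4 libraries, at 4.62 to 7.01 CPM, also lay above the whole replicate 1-2 set. SESN2 had 29.3, 32.5, 32.7 and 33.8 CPM in mock cells, against 25.2, 24.5, 20.4 and 21.7 CPM in NFATC4-KO 1 and 2 and control 1 and 2 (ratio 1.39). ATF4 was at 169 to 186 CPM in mock cells and 153 to 156 CPM in the replicate 1-2 set, a ratio of 1.15 between sets that did not overlap. ATF5 (1.26), TRIB3 (1.30) and CEBPB (1.29) were higher without overlap as well. DDIT3 averaged 29.3 ± 3.16 CPM in mock cells and 23.2 ± 3.89 CPM in the replicate 1-2 set (SD, n = 4 each) and overlapped through NFATC4-KO 2, at 28.9 CPM. CEBPG, the dimer partner that ATF4 and other C/EBP factors share, was the only regulator with a ratio below 1 (0.963).

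All 12 synthetases had a lower mean in mock cells than in the replicate 1-2 set, with a median log2 ratio of -0.17 beside -0.000915 for all genes. The same 12 signs came with library totals and with DESeq2's size factors in place of TMM factors. AARS1, which loads alanine, had 158, 165, 170.0 and 178 CPM in mock cells, against 219.6 and 216 CPM in NFATC4-KO 1 and 2 and 242 and 232 CPM in control 1 and 2 (ratio 0.739). LARS1, IARS1, NARS1 and WARS1, for leucine, isoleucine, asparagine and tryptophan, were also lower without overlap (ratios 0.798, 0.810, 0.847 and 0.886). SARS1, for serine, was nearest to equal at 129.6 ± 7.01 CPM in mock cells and 131 ± 2.49 CPM in the replicate 1-2 set (SD, n = 4 each). In the 8 other cytosolic synthetases 6 ratios were below 1 and 1 gene was lower without overlap. In the 17 mitochondrial ones 13 were below 1, with 4 lower and 1 higher without overlap. These counts stand beside 18.3% of all genes lower and 16.2% higher without overlap.

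The enzymes and transporters went both ways. MTHFD2 was at 78.0 to 90.6 CPM in mock cells and 62.5 to 75.0 CPM in the replicate 1-2 set, PSPH at 50.9 to 54.9 CPM and 43.5 to 47.7 CPM, and SLC3A2 at 165 to 184 CPM and 133 to 155 CPM, all higher in mock cells without overlap. SLC7A11 was lower in mock cells, at 21.3 to 29.8 CPM against 34.3 to 40.3 CPM (ratio 0.673), as was SLC7A5, at 37.01 to 42.2 CPM against 49.1 to 56.4 CPM (ratio 0.769), so the shared heavy chain and its light chains differed in opposite directions. PCK2 was lower without overlap by a ratio of 0.900. ALDH1L2 had 6, 7, 13 and 19 counts in mock cells, against 26, 22, 24 and 25 counts in NFATC4-KO 1 and 2 and control 1 and 2, a difference that rests on few counts and fell under the 1.5-fold minimum without mock 1. ASNS, PSAT1, PHGDH and SHMT2 overlapped, with ratios between 0.889 and 0.959.

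The 10 genes of the other ER stress arms were mostly higher in mock cells too, 6 of 10 without overlap and 0 lower, with a median log2 ratio of 0.18. Of 21 measured ATF4 targets outside the list 7 were higher and 4 lower without overlap. Over all genes 16.2% were higher and 18.3% lower without overlap. The adrenocortical markers summed to 2242 to 2456 CPM in mock cells and 1675 to 2418 CPM in the replicate 1-2 set, and the markers of other cell types to 4.81 to 6.12 CPM and 5.36 to 6.40 CPM. Their part in these differences was not tested.

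Between the replicate 1-2 set and the replicate 3-5 set, which each hold both labels, members of each role differed in both directions. MTHFD2, SLC7A5 and CEBPG were higher without overlap and by at least 1.5-fold in the replicate 1-2 set (beside 7.20% of 14368 genes), and TRIB3 was lower (beside 6.09%). With no minimum, 11 members were higher and 6 lower, beside 20.0% and 17.3% of all genes (37.3% together). The median log2 ratio of the 32 members was 0.09 and that of all genes 0.00282. What distinguishes the sets is not stated in the sources used here, and the comparison has no test.

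SLC7A5 had 56.4 and 53.7 CPM in NFATC4-KO 1 and 2 and 49.1 and 49.8 CPM in control 1 and 2, against 26.1 and 31.5 CPM in NFATC4-KO 3 and 5 and 23.6 and 26.3 CPM in control 3 and 4 (ratio of means 1.93). CEBPG had 78.6, 84.6, 72.9 and 72.2 CPM in NFATC4-KO 1 and 2 and control 1 and 2, against 41.0, 45.7, 46.2 and 40.6 CPM in NFATC4-KO 3 and 5 and control 3 and 4 (ratio 1.77). In both genes the 2 labels lay together within each set and far apart between the sets. In ΔNFATC4 and mock cells CEBPG was at 70.1 to 78.2 CPM, the level of the replicate 1-2 set. MTHFD2 averaged 67.2 ± 5.54 CPM in the replicate 1-2 set and 44.4 ± 2.51 CPM in the replicate 3-5 set (SD, n = 4 each, ratio 1.51). Without NFATC4-KO 2, NFATC4-KO 3 or control 3 its log2 ratio, 0.54, 0.57 and 0.58, fell under that of 1.5-fold.

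TRIB3 had 14.5, 16.2, 15.03 and 17.8 CPM in NFATC4-KO 1 and 2 and control 1 and 2, against 25.6, 26.8, 23.3 and 26.6 CPM in NFATC4-KO 3 and 5 and control 3 and 4 (ratio 0.627). ATF4, its inducer, ran the other way, with 153 to 156 CPM in the replicate 1-2 set and 132 to 145 CPM in the replicate 3-5 set. The serine enzymes also parted: PHGDH was at 259.9 to 278 CPM and 174 to 214 CPM and PSAT1 at 105 to 121 CPM and 75.0 to 88.0 CPM, both higher in the replicate 1-2 set, whereas PSPH was lower, at 43.5 to 47.7 CPM against 59.9 to 64.2 CPM. SLC3A2 (ratio 0.716) and PCK2 (0.718) were lower without overlap. Among the synthetases TARS1, for threonine, had the largest ratio, 1.35, with 285 to 301 CPM against 199.8 to 233 CPM, and 8 of the others had ratios between 0.963 and 1.08.

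**Figure D4:**
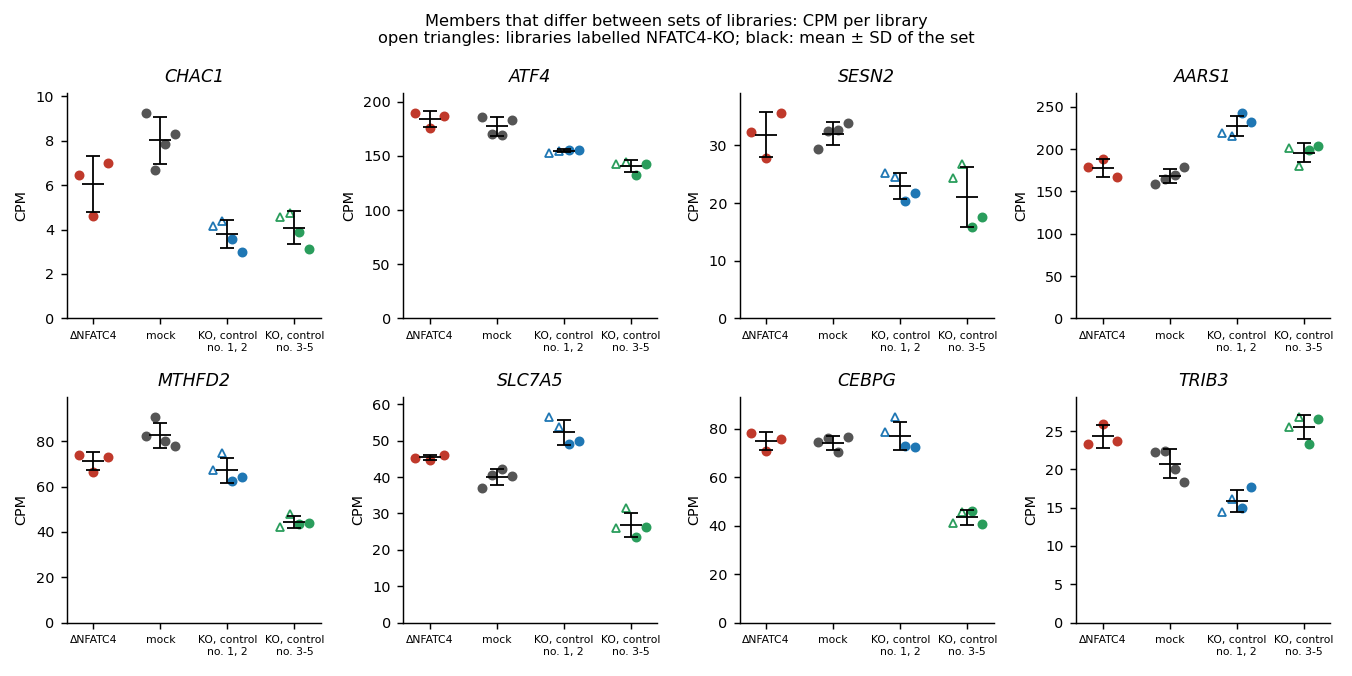
CPM of 8 members across the 4 sets of libraries, 1 point per library, with the mean and SD of each set in black; open triangles are libraries labelled NFATC4-KO. CHAC1, ATF4 and SESN2 have their highest means in ΔNFATC4 and mock cells and AARS1 its lowest, while SLC7A5 and CEBPG are lowest and TRIB3 is 23.3 to 26.8 CPM in the replicate 3-5 set.

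The adrenocortical markers moved with this split: they summed to 1675 to 2418 CPM in the replicate 1-2 set and 1139 to 1381 CPM in the replicate 3-5 set, with 7 of 10 higher without overlap and 0 lower (beside 20.0% and 17.3% of all genes). The markers of other cell types summed to 5.36 to 6.40 CPM and 7.0003 to 7.54 CPM. In bulk RNA, fewer cells of a kind and less RNA per cell cannot be told apart, and the part of these values in the members' differences was not tested.

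The labels NFATC4-KO and control were compared last, 4 libraries against 4, each label split over both sets. No member was called (edgeR quasi-likelihood test, Benjamini-Hochberg over 13868 genes), and 0% of all genes were, which does not show that the labels were alike. At an unadjusted p under 0.05, 4 members were higher and 2 lower, beside 4.74% and 4.33% of all genes. Limma-voom called 0 genes, and DESeq2's Wald test called 71 genes higher and 97 lower, with 0 members among them. With the replicate set (1 and 2 against 3 to 5) as a term in the model, 3 members rose, SESN2, ASNS and SLC3A2, and 1 fell, CEBPB, beside 4.39% and 6.04% of all genes. The replicate sets were noticed in these data, so calls with this term rest on a split chosen after values were seen. With the replicate number as a block (numbers 1 to 3, 6 libraries), 0 members were called, beside 0.317% and 0.677%.

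SESN2 had 25.2, 24.5, 24.3 and 26.7 CPM in NFATC4-KO 1, 2, 3 and 5, against 20.4, 21.7, 15.9 and 17.6 CPM in control 1 to 4, and the labels did not overlap. Its log2 fold change was 0.41 ± 0.10 (SE) with an adjusted p of 0.298 in edgeR and 0.42 ± 0.08 (SE) with an adjusted p of 0.00434 with the set term, which held without each of the 8 libraries in turn (adjusted p up to 0.0241) and did not hold with the block (adjusted p = 0.130). CEBPB, a factor of the C/EBP family induced by ATF4 and by cAMP, had 15.7, 17.3, 14.5 and 17.1 CPM in NFATC4-KO 1, 2, 3 and 5, against 21.8, 22.4, 17.4 and 18.5 CPM in control 1 to 4 (-0.31 ± 0.08, SE, with the set term, edgeR adjusted p = 0.0235). The labels came within 1 CPM of each other at NFATC4-KO 2 and control 3. The call of CEBPB was lost without control 1, control 2, control 4, NFATC4-KO 1 or NFATC4-KO 3 (adjusted p up to 0.106).

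ASNS had 51.8, 56.6, 44.1 and 48.6 CPM in NFATC4-KO 1, 2, 3 and 5, against 43.4, 37.5, 44.4 and 38.4 CPM in control 1 to 4 (0.29 ± 0.08, SE, with the set term, edgeR adjusted p = 0.0224). SLC3A2 had 143, 155, 213 and 217 CPM in NFATC4-KO 1, 2, 3 and 5, against 133, 134, 177 and 182 CPM in control 1 to 4 (0.21 ± 0.05, SE, with the set term, edgeR adjusted p = 0.0133). In SLC3A2 the labels separated within each set and not across both, and in ASNS NFATC4-KO 3 lay below control 3. The call of ASNS was lost without any of 5 libraries (control 2, control 4, NFATC4-KO 1, 2 or 5; adjusted p up to 0.0930) and that of SLC3A2 without control 4 or NFATC4-KO 5 (adjusted p up to 0.0526).

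CHAC1 had 4.17, 4.40, 4.57 and 4.76 CPM in NFATC4-KO 1, 2, 3 and 5, against 3.56, 3.01, 3.88 and 3.12 CPM in control 1 to 4, without overlap, and missed the threshold in edgeR with and without the set term (adjusted p = 0.0598 and 0.449). DDIT3 was at 21.6 to 28.9 CPM under the NFATC4-KO label and 18.7 to 21.7 CPM under the control label (adjusted p = 0.516 in edgeR). Within the sets the ratios of these genes had the same sign: the log2 ratio of NFATC4-KO over control was 0.38 in replicates 1 and 2 and 0.42 in replicates 3 to 5 for CHAC1, and 0.24 and 0.61 for SESN2. A difference of the label's effect between the sets passed the threshold for no member (edgeR interaction term), the nearest being ATF5, with log2 ratios of -0.10 and 0.35 and an adjusted p of 0.0521. ASNS was higher both in ΔNFATC4 cells against mock cells and under the NFATC4-KO label against control with the set term, in libraries that the comparisons do not share.

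**Figure D5:**
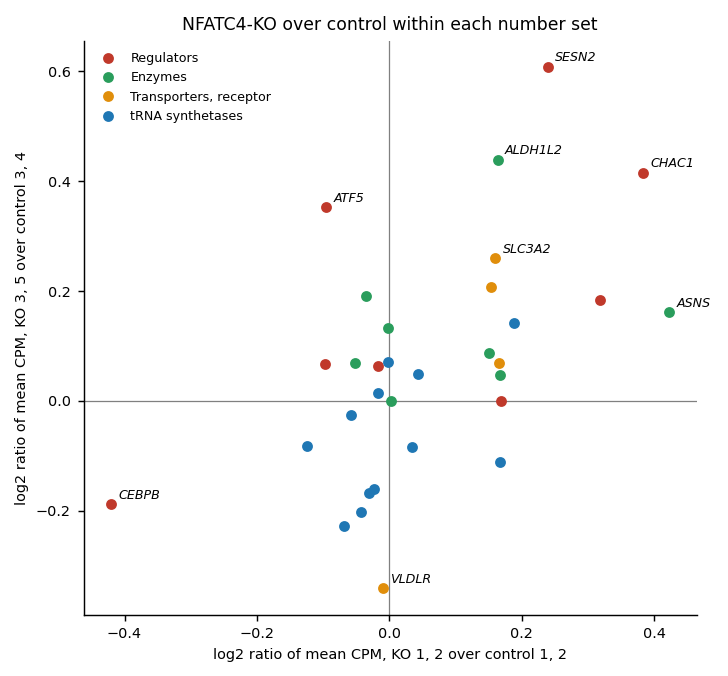
Log2 ratio of mean CPM (nothing added) of NFATC4-KO over control in replicates 1 and 2 on the x axis and in replicates 3 to 5 on the y axis, 1 point per member, coloured by role. SESN2 (0.24, 0.61), CHAC1 (0.38, 0.42) and ASNS (0.42, 0.16) lie in the upper right and CEBPB (-0.42, -0.19) in the lower left, and the 12 synthetases lie between -0.13 and 0.19 on the x axis and between -0.23 and 0.14 on the y axis.

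Shared sequence bears on these counts. In GENCODE release 44, 99.5% of the 100-base windows of the ASNS transcript also occur in a second annotated gene, ENSG00000284707, which is not among the genes counted, and 6.59% of those of ATF4 occur in its processed copies ATF4P3 and ATF4P4, so the level of ASNS depends on how shared reads were assigned. DDIT3 and MARS1 (chromosome 12, GRCh38, 57516588 to 57521737 on the minus strand and 57475445 to 57517569 on the plus strand) overlap at their ends, exons of DDIT3 also overlap the counted gene ENSG00000285133 on the same strand, which strand cannot resolve, and MBD6 on the opposite strand, exons of MARS1 overlap ARHGAP9 on the opposite strand, and exons of ATF5, SHMT2, MTHFD2, ALDH1L2, AARS1, WARS1 and YARS1 overlap counted genes on the opposite strand. The library kit keeps the strand, but the counting setting is not given in the sources used here. ASNS lies on chromosome 7 (97851677 to 97872542, minus strand), CHAC1 on chromosome 15 (40952962 to 40956512, plus strand), SESN2 on chromosome 1 (28259518 to 28282491, plus strand), VLDLR on chromosome 9 (2621182 to 2660056, plus strand) and EPRS1 on chromosome 1 (219968600 to 220046530, minus strand), all as gene spans of that annotation.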

How the data were processed

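The deposited counts are whole-number reads per gene, 1 library to a file. The authors made them from stranded TruSeq mRNA libraries by removing adaptors with fastp, aligning with STAR to GRCh38.p13 (GENCODE release 37) and counting with featureCounts; tool versions and the strand and multi-mapping settings are not given in the sources used here. The authors tested with DESeq2.

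Counts were tested with R 4.3.3, edgeR 4.0.16 (filterByExpr, TMM factors, robust quasi-likelihood fit, Benjamini-Hochberg adjustment over all genes kept), in fits of only the labels compared, with no block. Standard errors were taken as the absolute log2 fold change over the square root of F. CPM use TMM factors over all 15 libraries. Comparisons between replicate sets have no test: sets were called apart when no values overlapped and mean CPM, 0.5 added, differed at least 1.5-fold. Alternatives were DESeq2 1.42.0, limma-voom (limma 3.58.1), other scalings and filters, replicate set or number in the model, and each library left out. Calls were tested on simulated counts.

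NFATC4-KO and control libraries numbered 1, 2 and 3 deviated together by number (correlations across genes of 0.839, 0.809 and 0.733). Libraries of different number in the same replicate set did so as well, with 0.819 for NFATC4-KO 1 and control 2 and 0.829 for NFATC4-KO 3 and control 4. These values therefore show the replicate sets and no pairing by number beyond them, and the block by number was an alternative only. ΔNFATC4 and mock numbers did not pair (0.155, -0.141 and 0.0459). The members and all lists were chosen with earlier results of these data known. The text names all 32 members, NFATC4, and up to 4 called genes of each other list; CD68 and the marker names among the facts on all libraries are exceptions named after their values were seen. Positions come from GENCODE release 44, promoter windows from RefSeq.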

Additional observations from a re-analysis of the deposited data

Results flagged for a closer look

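Within a label of 4 libraries, 2 values of members stood apart from the other 3 by Dixon's test. EPRS1 was at 2426 CPM in mock 1, above the other mock libraries at 2119 to 2156 CPM, and TARS1 at 286 CPM in mock 4, above the others at 256 to 259.6 CPM. In all, 96 such tests were made over the mock, control and NFATC4-KO labels, and chance flags about 1 in 20 where a label does not split. Members that differ between the replicate sets are flagged less readily under the control and NFATC4-KO labels.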

How the results depend on the processing

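VLDLR and PHGDH kept their call between ΔNFATC4 and mock cells without each library in turn. The number of members that rose, 2, became 0 with all 15 libraries by 4 labels, 4 with the replicate sets split, 0 with a fold over 2 and 0 to 5 with 1 library left out; the number that fell, 4, became 2 with all 15 libraries, 6 with the sets split, 0 with a fold over 2 and 2 to 5 with 1 left out. The other scalings, filters and tools and the block gave 2 to 3 risen and 3 to 5 fallen. In the 15-library fit by labels the spread inside the labels control and NFATC4-KO enters the common error; over all genes it called 326 risen and 204 fallen, beside 1084 and 860 in the fit of the 7 libraries, and 31 higher and 31 lower between NFATC4-KO and control, beside 0 and 0. The counts were 0 risen without ΔNFATC4 2, ΔNFATC4 3 or mock 3, 1 without ΔNFATC4 1, mock 2 or mock 4 and 5 without mock 1, and 2 fallen without ΔNFATC4 1 or ΔNFATC4 2. Under the replicate block 3 members were higher and 5 lower in ΔNFATC4 than in mock cells, CHAC1 and WARS1 added; no member's call changed with it between NFATC4-KO and control. There the term for the replicate set, a split noticed in these data, gave 3 risen and 1 fallen.

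Members higher in mock cells than in the replicate 1-2 set numbered 9 and those lower 9 with no fold minimum. At the 1.5-fold minimum 1 was higher and 1 lower; those lower numbered 2 with library totals and 0 to 2 with 1 library left out (0 without mock 1, 2 without control 2, mock 2 or mock 4). Between the replicate sets 11 were higher and 6 lower with no minimum; at the 1.5-fold minimum 3 were higher and 1 lower, and 2 to 3 were higher with 1 left out.

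Log2 fold changes near 0 between ΔNFATC4 and mock cells changed sign: DDIT3 was -0.0024 without a filter and -0.0119 with the replicate block, which gave 0.0130 for SESN2, 0.0038 for SHMT2 and 0.0280 for IARS1. With 1 library left out they ranged from -0.0361 to 0.435 for ALDH1L2, -0.0195 to 0.0550 for CEBPG, -0.0356 to 0.0853 for DDIT3, -0.0303 to 0.0279 for IARS1, -0.00044 to 0.0470 for LARS1, -0.0217 to 0.0410 for SARS1, -0.0936 to 0.0808 for SESN2, -0.0488 to 0.0030 for SHMT2 and -0.0167 to 0.0538 for YARS1. The cause was not tested. ALDH1L2, with 6 to 26 counts, and CHAC1, with 68 to 232, have the fewest counts among the members.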
